A study of Homo sapiens with 6 samples.

Results

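The expression of 7 genes of the plasminogen activator and protease inhibitor system was examined in HFL-1 cells after knockdown of TAZ. The genes were PLAT, PLAU, PLAUR, SERPINB2, SERPINE2, A2M and PRSS23, taken by their symbols from a count table of 23355 genes. HFL-1 is a single culture line of fibroblasts from human fetal lung, and TAZ is a transcriptional coactivator encoded by WWTR1. Transfection was with siNTC, an siRNA that targets no gene, or with either of 2 siRNAs against TAZ named siTAZ #1 and siTAZ #2, and total RNA was collected 48 h later. All groups therefore went through lipofection, and the depletion of TAZ was transient. Each group had 2 libraries, labelled as replicates, and both siTAZ groups were compared with the same siNTC libraries. The study's methods state that each TAZ siRNA was transfected in duplicate.

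Plasminogen is an inactive precursor that becomes plasmin, a broad serine protease that dissolves fibrin and degrades matrix proteins. It is cleaved by tissue-type activator (tPA, encoded by PLAT) and by urokinase-type activator (uPA, encoded by PLAU), which acts at the cell surface when bound to its receptor uPAR (PLAUR). Both activators are blocked by serpins, a family of inhibitors that trap the protease in a covalent complex, among them PAI-2 (SERPINB2) and protease nexin-1 (SERPINE2). Alpha-2-macroglobulin (A2M) entraps proteases of many classes, and PRSS23 is a secreted serine protease of the trypsin family. In lung fibroblasts the balance of these factors is known for its bearing on fibrin clearance and matrix turnover in fibrosis.

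The sequences just upstream of 3 of the genes are shown because PLAU and PLAUR were higher with both siRNAs, whereas SERPINB2 moved in opposite directions. They are the 250 bases before a RefSeq transcription start on GRCh38.p14, read 5′ to 3′ on the strand of the gene, with motif matches in capitals. The windows lie at chr10:73910882-73911131 on the plus strand for PLAU, at chr19:43670170-43670419 on the minus strand for PLAUR and at chr18:63887455-63887704 on the plus strand for SERPINB2.
PLAU: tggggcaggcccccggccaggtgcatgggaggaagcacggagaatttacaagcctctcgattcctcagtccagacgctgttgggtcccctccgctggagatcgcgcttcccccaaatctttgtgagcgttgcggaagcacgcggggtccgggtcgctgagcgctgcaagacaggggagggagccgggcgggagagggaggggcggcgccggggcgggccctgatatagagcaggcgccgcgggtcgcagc
PLAUR: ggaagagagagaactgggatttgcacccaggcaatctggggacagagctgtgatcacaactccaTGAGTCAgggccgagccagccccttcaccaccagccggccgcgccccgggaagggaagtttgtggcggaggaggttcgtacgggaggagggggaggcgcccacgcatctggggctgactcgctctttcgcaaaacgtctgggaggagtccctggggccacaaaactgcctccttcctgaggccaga
SERPINB2: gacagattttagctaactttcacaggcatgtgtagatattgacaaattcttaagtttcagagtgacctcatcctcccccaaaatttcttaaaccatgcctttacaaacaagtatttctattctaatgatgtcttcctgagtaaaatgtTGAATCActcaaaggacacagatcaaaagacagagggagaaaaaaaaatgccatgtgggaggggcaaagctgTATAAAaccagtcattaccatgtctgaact

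Windows of 5 of the 7 genes were searched. Windows on chromosome 8, where PLAT lies, were left out of the search. The motif results cover neither PLAT nor A2M. Each window was searched on both strands for GGAATG, the core motif of the TEAD factors that TAZ binds, for TGANTCA, a loose form of the AP-1 motif, and for TATAAA, and no matches overlapped. No GGAATG was present in any window of the 5 genes, compared with 11.9% of 35116 promoter windows of the same length. A TGANTCA match started 186 bases before the PLAUR start and 102 bases before the SERPINB2 start, and such a match was present in 6.57% of all windows. A TATAAA match lay 30 bases before the SERPINB2 start, a motif present in 10.7% of windows. These matches are letters in a short window and do not show binding.

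Each library held between 15648055 and 32078188 counts. Values below are CPM, counts scaled to the size of the library after TMM normalization, and fold changes are from edgeR's quasi-likelihood test, with the false discovery rate (FDR) adjusted over 14053 genes and a threshold of 0.05. The deposited counts of siTAZ #1 replicate 2 were nearly missing for the genes from RANGAP1 on chromosome 22 to the end of chromosome Y, which took 0.246% of its counts compared with 3.58% to 3.74% in the other libraries. None of the 7 genes lies there. Without that stretch the same numbers of the 7 genes were called as with it, namely 7 with siTAZ #1, 6 with siTAZ #2 and 4 between the siRNAs. Over all genes, more were called without the stretch, at 4110, 5207 and 5105 of 13458 in the same order. With it, 2889, 4004 and 4020 of 14053 were called. With 2 libraries a side, an exact permutation test cannot give a two-sided p below 0.333, so all calls rest on the spread that edgeR estimated across genes and groups.

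WWTR1, the targeted gene, measured 132 and 131 CPM with siNTC, 26.4 and 28.4 CPM with siTAZ #1, and 46.1 and 43.1 CPM with siTAZ #2. Every siTAZ library was below both control libraries. The log2 fold change was -2.26 (SE 0.10, FDR 0.00062) with siTAZ #1 and -1.56 (SE 0.10, FDR 0.00068) with siTAZ #2, and WWTR1 was lower with siTAZ #1 than with siTAZ #2 by a log2 difference of -0.70 (FDR 0.005). With edgeR's exact test on 4 libraries, this difference had an FDR of 0.27.

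All 7 genes passed the filter on low counts. With siTAZ #1, 6 were higher than siNTC and 1 was lower at the FDR threshold, whereas 20.6% of all genes tested were called, 10.8% higher and 9.78% lower. With siTAZ #2, 4 were higher (PLAU, PLAUR, PLAT and A2M), 2 were lower (SERPINB2 and PRSS23), and SERPINE2 was not called. Of all genes tested, 28.5% were called with siTAZ #2, 14.1% higher and 14.4% lower. The 2 libraries of siTAZ #1 did not overlap those of siNTC in any of the 7 genes, being above in 6 and below in 1, and the same held for siTAZ #2, being above in 4 and below in 3. Such separation was common, with 33.2% of all genes above and 31.1% below for siTAZ #1, and 36% and 35.5% for siTAZ #2. Over the 7 genes, log2 fold changes had a median of 1.49 for siTAZ #1 and 0.78 for siTAZ #2, compared with 0.02 and 0.01 over all genes tested. The 7 genes and the gene lists below were chosen with earlier results of these data known. Shares and medians set beside those of all genes are therefore descriptions and not a test of the set. The 4 genes higher with both siRNAs compare with 5.49% of all genes, PRSS23 as the gene lower with both with 3.74%, and SERPINB2, called in opposite directions, with 1.52%. Values in each library are shown in the plot of CPM by gene.

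**Figure D1:**
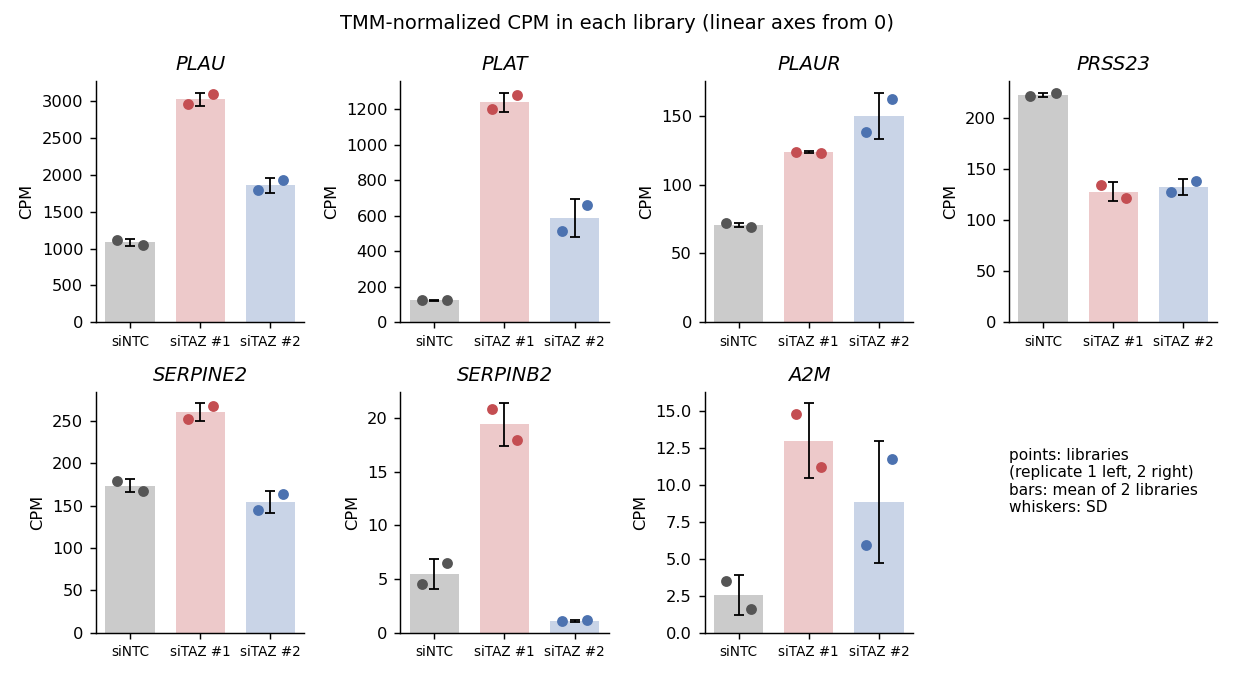
CPM of the 7 genes in each of the 6 libraries, on linear axes that start at 0. Points are libraries, bars are means of 2 libraries and whiskers are SDs. PLAT sits at 122 and 125 CPM with siNTC and at 511 CPM or more in every siTAZ library, whereas SERPINB2 is highest with siTAZ #1 and lowest with siTAZ #2.

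PLAT, which encodes tPA, showed the largest rise of the 7 genes with siTAZ #1. It is located at chr8:42032236-42065227 on the minus strand (GRCh37), and its canonical transcript has 14 exons. The libraries measured 125 and 122 CPM with siNTC, 1202 and 1279 CPM with siTAZ #1, and 511 and 661 CPM with siTAZ #2. The 3 groups did not overlap, and siTAZ #1 was the highest. PLAT was 10-fold higher than siNTC with siTAZ #1 (log2 fold change 3.33, SE 0.14, FDR 0.00058) and 4.74-fold higher with siTAZ #2 (2.25, SE 0.14, FDR 0.00064). The direct test between the siRNAs gave a log2 difference of 1.08 (95% interval 0.76 to 1.41, FDR 0.0033). All PLAT calls held under every alternative tried, with a highest FDR of 0.022 for siTAZ #1 and 0.019 for siTAZ #2.

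PLAU, which encodes uPA, was the most abundant of the 7 genes and also rose with both siRNAs. It lies at chr10:75668935-75677254 on the plus strand (GRCh37). Its level was 1119 and 1045 CPM with siNTC, 2966 and 3094 CPM with siTAZ #1, and 1790 and 1932 CPM with siTAZ #2. As for PLAT, the groups were separate and siTAZ #2 lay between the other two. The increase was 2.8-fold with siTAZ #1 (log2 fold change 1.49, SE 0.09, FDR 0.00084) and 1.72-fold with siTAZ #2 (0.78, SE 0.09, FDR 0.0026), and both calls held in all alternatives (highest FDR 0.026 and 0.048). Between the siRNAs the log2 difference was 0.70 (95% interval 0.49 to 0.92, FDR 0.0035), with an FDR of 0.14 by the exact test. C10orf55, a non-coding gene on the opposite strand, covers 31% of the exonic bases of PLAU, and the strand setting of the counting is not given in the sources used here. C10orf55 itself had 23 to 129 counts per library. Its log2 fold changes were 1.23 (FDR 0.11) with siTAZ #1 and 0.97 (FDR 0.16) with siTAZ #2. How reads in the shared bases were assigned is not known, and their part in the PLAU counts was not tested.

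PLAUR, the receptor that holds uPA at the cell surface, rose with both siRNAs, and here siTAZ #2 had the higher mean. It is at chr19:44150247-44174699 on the minus strand (GRCh37). PLAUR measured 71.8 and 69.4 CPM with siNTC, 124 and 123 CPM with siTAZ #1, and 138 and 162 CPM with siTAZ #2. All 4 siTAZ libraries were above both controls, as for 18.6% of all genes tested. The log2 fold change was 0.81 (SE 0.10, FDR 0.0051) with siTAZ #1 and 1.09 (SE 0.10, FDR 0.0015) with siTAZ #2, that is 1.75-fold and 2.13-fold. The difference between the siRNAs did not pass the threshold (-0.28, 95% interval -0.53 to -0.04, FDR 0.084). The siTAZ #1 call was lost by the exact test (FDR 0.08), without siNTC replicate 1 (FDR 0.061) and without siNTC replicate 2 (FDR 0.065), with log2 fold changes of 0.77 to 0.84 over all alternatives.

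SERPINB2, which encodes PAI-2, a serpin that inhibits uPA and tPA and is mostly retained inside cells, went in opposite directions with the siRNAs. It is located at chr18:61538926-61571122 on the plus strand (GRCh37). The counts were 71 and 103 with siNTC, 322 and 587 with siTAZ #1, and 23 and 20 with siTAZ #2, which correspond to 4.5 and 6.5 CPM, 20.8 and 18 CPM, and 1.08 and 1.21 CPM. The groups did not overlap, with siTAZ #1 above and siTAZ #2 below the controls. SERPINB2 was 3.52-fold higher with siTAZ #1 (log2 fold change 1.82, SE 0.25, FDR 0.0067) and 4.81-fold lower with siTAZ #2 (-2.27, SE 0.27, FDR 0.0031). Between the siRNAs it differed 16.9-fold (log2 difference 4.08, 95% interval 3.39 to 4.77, FDR 0.00085), which was the largest such difference of the 7 genes. Without siNTC replicate 1, the rise with siTAZ #1 was 1.57 on the log2 scale with an FDR of 0.055, whereas the fall with siTAZ #2 passed in every alternative (highest FDR 0.031). A further annotated gene on the same strand, without a symbol and not in the count table, shares 20% of the exonic bases of SERPINB2.

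SERPINE2 encodes protease nexin-1, a secreted serpin that inhibits thrombin, uPA and tPA, and it passed the FDR threshold with siTAZ #1 and not with siTAZ #2. It lies at chr2:224839762-224904035 on the minus strand (GRCh37). Levels were 179 and 168 CPM with siNTC, 253 and 268 CPM with siTAZ #1, and 145 and 164 CPM with siTAZ #2. The log2 fold change was 0.59 (SE 0.09, FDR 0.011) with siTAZ #1 and -0.17 (95% interval -0.40 to 0.06, FDR 0.23) with siTAZ #2. The direct test of the siRNAs gave a difference of 0.76 (95% interval 0.52 to 0.99, FDR 0.0036), which the exact test placed at an FDR of 0.094. The siTAZ #1 call was also lost by the exact test (FDR 0.3), without siNTC replicate 1 (FDR 0.081) and without siNTC replicate 2 (FDR 0.11).

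A2M, the broad protease trap, was the least abundant of the 7 genes in the control cells and had the widest standard errors. It lies at chr12:9220260-9268825 on the minus strand (GRCh37), with 36 exons. The counts were 55 and 25 with siNTC, 229 and 364 with siTAZ #1, and 127 and 196 with siTAZ #2, or 3.49 and 1.58 CPM, 14.8 and 11.2 CPM, and 5.94 and 11.8 CPM. Every siTAZ library was above both controls, and the siTAZ groups overlapped each other. A2M was 5.1-fold higher with siTAZ #1 (log2 fold change 2.35, SE 0.50, FDR 0.025) and 3.49-fold higher with siTAZ #2 (1.81, SE 0.50, FDR 0.042), and the siRNAs differed by 0.55 (95% interval -0.59 to 1.69, FDR 0.43). With siTAZ #1, the log2 fold change was 3.02 without siNTC replicate 1 (FDR 0.068) and 1.88 without siNTC replicate 2 (FDR 0.13). With siTAZ #2, it was 2.47 (FDR 0.067) and 1.33 (FDR 0.19) without these libraries, 2.22 (FDR 0.054) without siTAZ #2 replicate 1 and 1.20 (FDR 0.19) without siTAZ #2 replicate 2. Under a replicate block, both A2M calls were lost (FDR 0.062 and 0.084). An antisense gene, A2M-AS1, covers 8.88% of the exonic bases of A2M.

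PRSS23, the secreted trypsin-like protease, was the only one of the 7 genes lower with both siRNAs. It is at chr11:86502101-86663952 on the plus strand (GRCh37). The libraries measured 221 and 224 CPM with siNTC, 134 and 121 CPM with siTAZ #1, and 127 and 138 CPM with siTAZ #2. All 4 siTAZ libraries were below both controls, as were those of 17.5% of all genes, and the siTAZ groups overlapped. PRSS23 was 1.74-fold lower with siTAZ #1 (log2 fold change -0.80, SE 0.09, FDR 0.0039) and 1.68-fold lower with siTAZ #2 (-0.75, SE 0.09, FDR 0.0032). Between the siRNAs the log2 difference was -0.05 (95% interval -0.27 to 0.17, FDR 0.71). The siTAZ #1 call was lost by the exact test (FDR 0.067) and without siNTC replicate 2 (FDR 0.051). PRSS23 belongs to the genes that the study listed as lowered in these libraries, so its direction is not independent evidence. FZD4, on the opposite strand, covers 12.2% of its exonic bases and had 3.62 to 10.6 CPM. The log2 fold changes of FZD4 were -1.12 (FDR 0.039) with siTAZ #1 and -0.30 (FDR 0.45) with siTAZ #2. The part of shared reads in the PRSS23 counts was not tested.

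**Figure D2:**
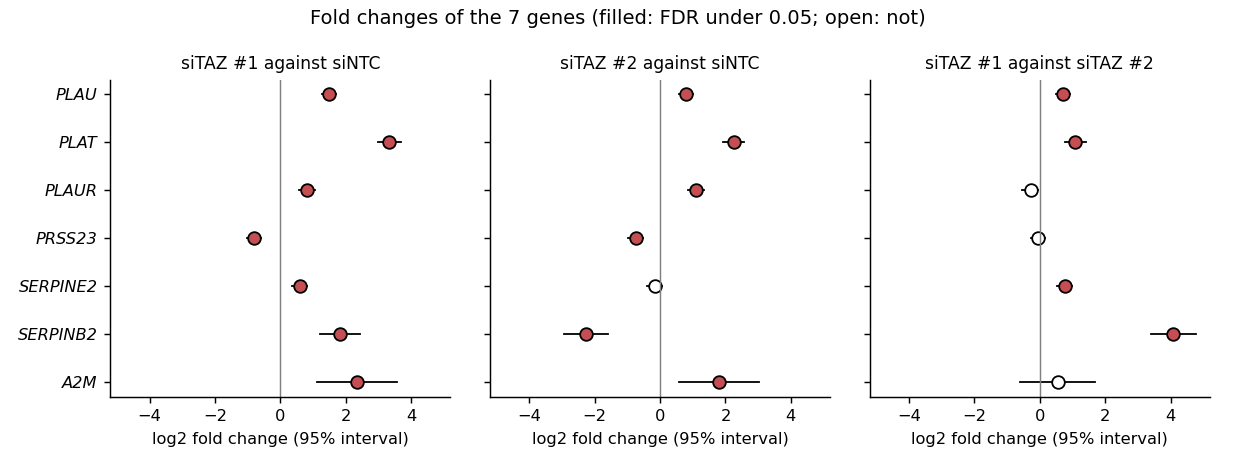
Log2 fold changes of the 7 genes (x axis) with 95% intervals for siTAZ #1 against siNTC, siTAZ #2 against siNTC and siTAZ #1 against siTAZ #2. Filled points have an FDR under 0.05, and SERPINB2 lies at 1.82, -2.27 and 4.08 in the 3 panels.

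Between the siRNAs, 4 of the 7 genes (PLAT, PLAU, SERPINB2 and SERPINE2) were higher with siTAZ #1 and 0 were lower by edgeR's quasi-likelihood test, compared with 15.2% and 13.4% of all genes tested, or 28.6% in either direction. PLAUR, A2M and PRSS23 did not pass. At an unadjusted p under 0.05, 1 gene was lower, namely PLAUR. Neither DESeq2 nor the exact test called any of the 7 genes lower. The libraries of the siRNAs did not overlap for 5 genes, with siTAZ #1 above in 4 and below in PLAUR, whereas 32.6% of all genes were above and 33% below.

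Levels of different genes were compared per kilobase of canonical transcript, as shown in the plot of CPM per kilobase. PLAU was the highest of the 7 in all groups, at 462 ± 22.3 CPM per kilobase with siNTC, 1293 ± 38.6 with siTAZ #1 and 794 ± 43.1 with siTAZ #2 (SD, n = 2). PLAT was the fifth of the 7 with siNTC (40.4 ± 0.539) and the second with siTAZ #1 (405 ± 17.7) and siTAZ #2 (191 ± 34.5). With siNTC, SERPINE2 (78 ± 3.65), PRSS23 (60 ± 0.59) and PLAUR (51.6 ± 1.25) lay between PLAU and PLAT, each apart from its neighbors by more than the range of the libraries. SERPINB2 and A2M stayed low, with ranges of 0.564 to 10.9 and 0.342 to 3.2 CPM per kilobase over the 6 libraries. Per length, PLAT amounted to 8.53% and 8.96% of PLAU with siNTC, 31% and 31.6% with siTAZ #1, and 21.9% and 26.2% with siTAZ #2.

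**Figure D3:**
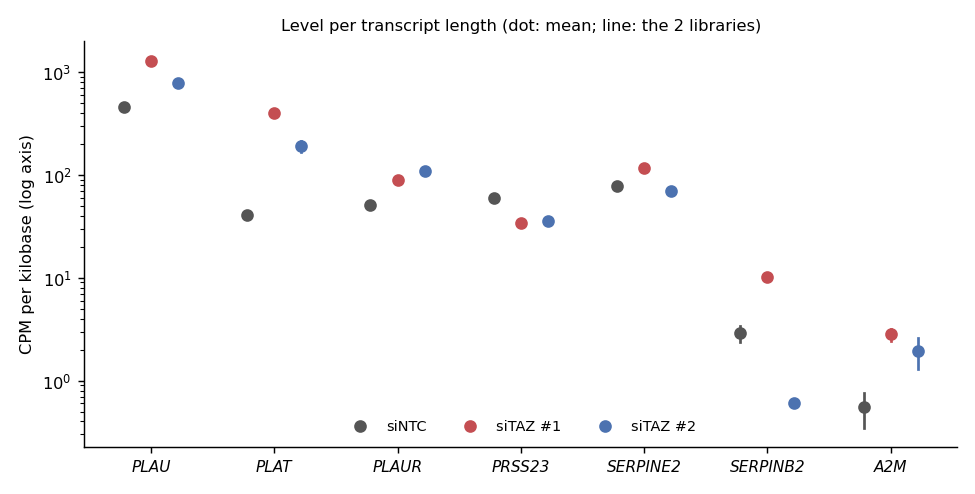
CPM per kilobase of canonical transcript (log axis) for the 7 genes. Dots are group means and lines join the 2 libraries. PLAU is above the other 6 genes in all groups, and PLAT moves from 40.4 with siNTC to 405 with siTAZ #1 and 191 with siTAZ #2.

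Of 32 other genes listed for the plasminogen system, 22 were tested. The list is broad and includes genes of coagulation and growth factor signaling, such as F3, THBD, HGF and MET. With siTAZ #1, 8 were higher, 3 were lower and 11 were not called, and log2 fold changes had a median of 0.25. F3, THBD, HGF and MET were among the 8. With siTAZ #2, 9 were higher, 6 were lower and 7 were not called, with a median of 0.21. F3 was among the 9, and THBD, HGF and MET were among the 6. Of all genes tested, 20.6% were called with siTAZ #1 (10.8% higher and 9.78% lower) and 28.5% with siTAZ #2 (14.1% higher and 14.4% lower), with medians of 0.02 and 0.01. PLG, which encodes plasminogen itself, had at most 10 counts in a library and was not tested. S100A10 and ANXA2, whose proteins form a cell surface complex that binds tPA and plasminogen, were lower with both siRNAs. S100A10 fell from 449 and 420 CPM to 199 and 243 CPM with siTAZ #1 (-0.97, FDR 0.0046) and to 268 and 252 CPM with siTAZ #2 (-0.74, FDR 0.0071). It is in the study's list of lowered genes too. ANXA2 measured 678 and 708 CPM with siNTC, 434 and 530 CPM with siTAZ #1 (-0.52, FDR 0.033) and 316 and 280 CPM with siTAZ #2 (-1.22, FDR 0.002). S100A10 lost its calls without siNTC replicate 1 (FDR 0.052 and 0.058) and, with siTAZ #2, without siTAZ #2 replicate 2 (FDR 0.052). For ANXA2, siTAZ #1 no longer passed without siNTC replicate 1 (FDR 0.14), siNTC replicate 2 (FDR 0.17), siTAZ #2 replicate 1 (FDR 0.059) or siTAZ #2 replicate 2 (FDR 0.054), nor under a replicate block (FDR 0.074) or in a fit of 4 libraries (FDR 0.054).

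Of the genes higher with both siRNAs, LRP1 and IGF2R are endocytic receptors. LRP1, which takes up complexes of activators with their inhibitors, had log2 fold changes of 0.35 (FDR 0.042) with siTAZ #1 and 0.63 (FDR 0.0056) with siTAZ #2. IGF2R, which can bind uPAR, had 0.45 (FDR 0.019) and 0.32 (FDR 0.041). ITGAV, an integrin subunit that pairs in vitronectin receptors, had 0.55 (FDR 0.011) and 1.21 (FDR 0.00087). F3, tissue factor, the trigger of coagulation, had 0.72 (FDR 0.0065) and 1.22 (FDR 0.0011). Without siNTC replicate 1 or siNTC replicate 2, the calls with siTAZ #1 were lost for LRP1 (FDR 0.22 and 0.23), IGF2R (FDR 0.15 and 0.13) and ITGAV (FDR 0.091 and 0.1), and for F3 without siNTC replicate 2 (FDR 0.07). For LRP1, siTAZ #1 no longer passed without siTAZ #2 replicate 1 (FDR 0.074) or siTAZ #2 replicate 2 (FDR 0.086). With siTAZ #2, LRP1 was lost without siNTC replicate 1 (FDR 0.064) or siNTC replicate 2 (FDR 0.067), and IGF2R was lost without any one of siNTC replicate 1 (FDR 0.23), siNTC replicate 2 (FDR 0.19), siTAZ #2 replicate 1 (FDR 0.056) and siTAZ #2 replicate 2 (FDR 0.21). A replicate block ended the siTAZ #1 call of LRP1 (FDR 0.096) and both calls of IGF2R (FDR 0.051 and 0.082). HGF, a growth factor related in structure to plasminogen, was chosen after its values were seen because it was called in opposite directions like SERPINB2, as were MET and THBD, with 335 and 334 CPM with siNTC, 572 and 521 CPM with siTAZ #1 and 146 and 152 CPM with siTAZ #2. Its log2 fold changes were 0.71 (FDR 0.0039) and -1.17 (FDR 0.00076), and the first was lost without siNTC replicate 1 or siNTC replicate 2 (FDR 0.061 each). MET lost both calls without siNTC replicate 1 (FDR 0.16 with siTAZ #1 and 0.095 with siTAZ #2), without siNTC replicate 2 (FDR 0.13 each) and under a replicate block (FDR 0.063 and 0.056), and its siTAZ #2 call without siTAZ #2 replicate 1 (FDR 0.055) or siTAZ #2 replicate 2 (FDR 0.1). THBD lost its siTAZ #1 call without siNTC replicate 1 (FDR 0.085), siNTC replicate 2 (FDR 0.2), siTAZ #2 replicate 1 (FDR 0.068) or siTAZ #2 replicate 2 (FDR 0.071). Its siTAZ #2 call was lost without siNTC replicate 1 (FDR 0.092), siTAZ #2 replicate 1 (FDR 0.058) or siTAZ #2 replicate 2 (FDR 0.098).

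**Figure D4:**
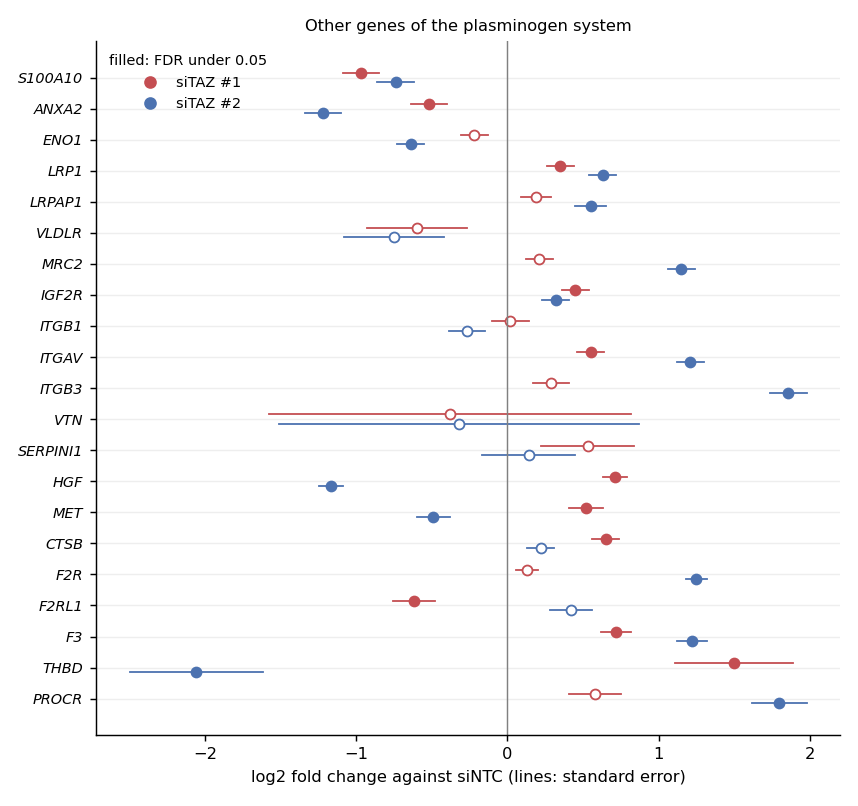
Log2 fold changes against siNTC (x axis) of other tested genes of the plasminogen system list, with standard errors. The list includes genes of coagulation and growth factor signaling. Red points are siTAZ #1, blue points are siTAZ #2, and filled points have an FDR under 0.05. S100A10 and ANXA2 lie to the left of 0 with both siRNAs, and HGF, MET and THBD are filled on opposite sides.

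Among 34 further serpins and other protease inhibitors, 20 were tested. With siTAZ #1, 3 were higher and 2 were lower, and with siTAZ #2, 5 were higher and 3 were lower, with medians of 0.16 and 0.11. Of all genes tested, 20.6% and 28.5% were called, and the count with siTAZ #1 is near that background. SERPINB9, an inhibitor of granzyme B in the same serpin clade as SERPINB2, was higher with both siRNAs, with log2 fold changes of 1.27 (FDR 0.02) and 1.30 (FDR 0.014). Its levels were 7.99 and 5.17 CPM with siNTC, 17 and 14.8 CPM with siTAZ #1, and 15.5 and 17 CPM with siTAZ #2. Its siTAZ #1 call was lost without siNTC replicate 2 (FDR 0.096), siTAZ #2 replicate 1 (FDR 0.051) or siTAZ #2 replicate 2 (FDR 0.053), and its siTAZ #2 call without siNTC replicate 2 (FDR 0.07), siTAZ #2 replicate 1 (FDR 0.06) or siTAZ #2 replicate 2 (FDR 0.083). SPOCK1, a matrix proteoglycan, and SPINT2, a Kunitz-type inhibitor of serine proteases, went the opposite way from SERPINB2. SPOCK1 had log2 fold changes of -1.57 (FDR 0.0017) and 1.18 (FDR 0.0025), and SPINT2 had -1.23 (FDR 0.02) and 0.95 (FDR 0.031). SPINT2 was low, at 27 to 181 counts per library. The calls of SPOCK1 and SPINT2 against siNTC were not examined under the alternatives.

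Among 31 secreted or membrane serine proteases, 17 were tested. With siTAZ #1, 4 were higher and 4 were lower, and with siTAZ #2, 4 were higher and 2 were lower, with medians of -0.08 and 0.38, beside 20.6% and 28.5% of all genes called. MASP1, a protease of the lectin complement pathway that is also in the study's list, was lower with both siRNAs, with log2 fold changes of -1.44 (FDR 0.0071) and -2.03 (FDR 0.002). CORIN, which activates natriuretic peptides, was lower at -0.97 (FDR 0.036) and -1.70 (FDR 0.0053). HTRA3, a secreted protease that acts on matrix proteins, had log2 fold changes of 0.86 (FDR 0.0063) and 0.84 (FDR 0.0048). Without siNTC replicate 1 or siNTC replicate 2, the siTAZ #1 calls were lost for MASP1 (FDR 0.07 and 0.058), CORIN (FDR 0.18 and 0.11) and HTRA3 (FDR 0.071 and 0.058). CORIN was also lost without siTAZ #1 replicate 1 (FDR 0.053), siTAZ #2 replicate 1 (FDR 0.07) or siTAZ #2 replicate 2 (FDR 0.067) and under a replicate block (FDR 0.079), and HTRA3 with siTAZ #2 without siNTC replicate 1 (FDR 0.054). FURIN, a convertase of secreted precursors, differed most between the siRNAs together with PRSS35. Their changes against siNTC were not examined under the alternatives. FURIN had log2 fold changes of -0.44 (FDR 0.023) and 0.88 (FDR 0.002), and PRSS35 had -0.77 (FDR 0.15) and 0.97 (FDR 0.067) with a direct difference of -1.75 (FDR 0.012, or 0.068 without siTAZ #2 replicate 1).

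The label of the cells was checked with marker genes. All 10 fibroblast markers were tested, and their summed level was 34957.2 to 35038.1 CPM with siNTC, 23303.6 to 24153.3 CPM with siTAZ #1 and 27283.6 to 29035.9 CPM with siTAZ #2. The sum is mostly COL1A1, COL1A2, COL3A1 and VIM, and the markers did not move together, since 3 were higher and 4 lower with siTAZ #1, and 2 were higher and 5 lower with siTAZ #2. PDGFRA, a receptor of platelet-derived growth factor, was among the higher, at 447 and 401 CPM with siNTC and 1370 and 1424 CPM with siTAZ #1. Of the 8 epithelial markers, CDH1, KRT5, NKX2-1 and SFTPC were under 1 CPM in every library, and the sum was 46.1 to 46.5, 41.6 to 49 and 59.3 to 65 CPM. That sum was mostly KRT18, at 29.7 to 50.4 CPM over the libraries, and KRT8, at 7.13 to 11.5 CPM. Of the 7 endothelial markers, PECAM1, CDH5, KDR, CLDN5 and ERG were under 1 CPM throughout, and the sum was 42.2 to 42.7, 46.8 to 47.4 and 27.1 to 31.5 CPM. TEK made up most of it, at 41.2 and 41 CPM with siNTC, 44.8 and 44.1 CPM with siTAZ #1, and 24 and 27.8 CPM with siTAZ #2. The 8 leukocyte markers summed to 0.884 to 2.09, 0.968 to 1.53 and 1.69 to 3.13 CPM, with TYROBP at 0 in all libraries. In bulk RNA, fewer cells of a kind cannot be told apart from less RNA per cell, and the part of the change in marker sums in the results above was not tested.

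The genes with the profile most like each of the 7 over the 6 libraries were found by the root-mean-square difference of log2 CPM centered on its mean. For SERPINB2 they were IL1R1, a receptor of interleukin-1, and CXCL1, a chemokine, each at a difference of 0.20, with log2 fold changes of 2.08 and 1.95 with siTAZ #1 and -2.31 and -2.09 with siTAZ #2. For PLAT they were SHC4 (0.18) and CLEC2B (0.24), and for PLAU they were XPR1 (0.07) and RASGRF2 (0.08). For PLAUR they were LOC400550 (0.04) and KIFC3 (0.05), and for SERPINE2 they were CCDC50 (0.02) and FGFR1OP (0.04). For A2M, MGC23270 had a difference of 0.24, and for PRSS23 they were WARS and TRAM2 (0.05 each). These likenesses are descriptions over 6 libraries that share their groups and depth.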

How the data were processed

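The deposited values were raw counts of reads per gene, without normalization. Per the labels and methods, the authors aligned Ion Proton reads of HFL-1 RNA to hg19 with TMAP and counted them with HTSeq 0.6.1, and the strand setting is not given in the sources used here. Of 23368 entries, 13 bore a date in place of a symbol (0.0458% to 0.0506% of the counts of a library) and were left out. Genes were filtered with filterByExpr by group, scaled by TMM and compared in edgeR 4.0.16 (R 4.3.3) by quasi-likelihood in 1 model of all 6 libraries, and p-values were adjusted over 14053 genes by Benjamini-Hochberg. SEs were derived from the F statistic and the fold change, and intervals have a level of 95%. The fit was also run on simulated data with 1 common dispersion of 0.0164 for all genes and no missing stretch in any library. These settings differ from the data, so that run does not measure the error of the calls here. Depth was 15648055 to 32078188 counts per library, and values cover counting error and the spread of 2 libraries a group.

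The 7 genes and the gene lists were chosen with earlier results of these data known. Named genes were the 7, WWTR1, and S100A10, ANXA2 and LRP1, with genes of the plasminogen system list called in the same direction by both siRNAs. From each other list, they were up to 3 genes with the largest mean change in each direction among those called in the same direction by both siRNAs, and the 2 with the largest called difference between the siRNAs. For each of the 7, the 2 genes of most similar profile were named. A gene of the plasminogen system list and a gene of similar profile to A2M are not reported here, and the former remains in the counts of its list. C10orf55, FZD4, HGF, MET and THBD were outside the rule and chosen after their values were seen. Gene positions were from GENCODE on GRCh37, and promoter windows from RefSeq on GRCh38.p14.

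Alternatives were DESeq2 1.42.0, edgeR's exact test, scaling by library total, RLE or upper quartile, a mean count of 50 or no filter on low counts, a replicate block, fits of only 4 libraries, leaving out the stretch from RANGAP1 to Y, and leaving out each library. A crossed replicate block was added after seeing the data.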

Additional observations from a re-analysis of the deposited data

Results flagged for a closer look

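In 4 of the 7 genes the effects of the siRNAs differed from each other by the direct test of siTAZ #1 against siTAZ #2. Of all genes tested, 28.6% were called in that comparison. The log2 difference was 4.08 for SERPINB2 (FDR 0.00085), 1.08 for PLAT (FDR 0.0033), 0.70 for PLAU (FDR 0.0035) and 0.76 for SERPINE2 (FDR 0.0036). WWTR1 itself differed by -0.70 (FDR 0.005) in the same comparison. PLAT and PLAU were higher than siNTC with both siRNAs, whereas SERPINB2 was higher with siTAZ #1 and lower with siTAZ #2. By the exact test, the differences of PLAU and SERPINE2 had FDRs of 0.14 and 0.094, and that of WWTR1 had an FDR of 0.27.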

How the results depend on the processing

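Of 343 values of the 7 genes under alternatives, 322 kept their direction and side of the threshold, 19 kept the direction but lost the call, and 2 reversed. Both reversed values were PRSS23 between the siRNAs, at 0.03 without siTAZ #1 replicate 2 and 0.02 without siTAZ #2 replicate 2, in a range of -0.12 to 0.03 when a library was left out. By the exact test, the siTAZ #1 calls of ANXA2, LRP1, IGF2R, ITGAV, F3, SERPINB9, CORIN, HTRA3, HGF and MET were lost (FDR 0.089 to 0.67). A fit of 4 libraries ended those of ANXA2 (FDR 0.054), LRP1 (FDR 0.079), SERPINB9 (FDR 0.053), CORIN (FDR 0.063) and THBD (FDR 0.065), and no filter on low counts ended LRP1 with siTAZ #1 (FDR 0.058) and IGF2R with siTAZ #2 (FDR 0.065). The number of the 7 genes called was 7 with siTAZ #1, 4 by the exact test and 3 to 7 when a library was left out. Between the siRNAs it was 4, and 2 by the exact test. Over all genes, 2889 were called with siTAZ #1, 911 by the exact test and 1691 with a replicate block, with 556 to 5100 when a library was left out. With siTAZ #2, 4004 were called, 6422 by the exact test and 6097 in a fit of 4 libraries, with 1328 to 6042 when a library was left out. Between the siRNAs, 4020 were called and 1373 by the exact test, with 1797 to 5659 when a library was left out. The cause of these shifts was not tested. edgeR's common dispersion was 0.0807 with the genes from RANGAP1 to Y and 0.0164 without them. No pairing of the libraries by replicate number was detected, which with 2 libraries a group cannot exclude one. Correlations of deviations were -0.000692, 0.0109 and -0.0769 over all genes, and -0.00678, 0.0101 and -0.183 without the genes from RANGAP1 to Y. The order is siNTC with siTAZ #1, siNTC with siTAZ #2 and siTAZ #1 with siTAZ #2. The replicate block called 1691, 2749 and 2869 genes and ended the A2M calls alone among the 7, and calls of ANXA2, LRP1, IGF2R, CORIN and MET. Because the last correlation was negative, a crossed block between the siRNAs was added, which called 3893 genes.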
